A study of Mus musculus with 12 samples.

Results

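The Trav15-dv6 family consists of the V segments of the mouse T cell receptor alpha (Tcra) locus whose names begin with Trav15 or Trav15d and carry the suffix dv6 or dv6d. All rows with such a name were taken from the 12 deposited tables, with every J partner. This gave 4 segments, Trav15d-1-dv6d-1, Trav15d-2-dv6d-2, Trav15-1-dv6-1 and Trav15-2-dv6-2, among the 79 Trav segments listed in all tables (85 are listed in at least 1), and 172 of 3397 pairs of a Trav and a Traj segment. Each measurement is a share: the deposited fraction of a segment or pair as a percent of its table's own total.

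The tables describe Tcra transcripts of CD3e-negative CD4 CD8 double-positive (DP) thymocytes, the stage at which Tcra rearranges before selection. The mice were 4 to 6 weeks old, on a C57BL/6J background with a Tcra-Tcrd locus of strain 129 that holds TcrdCreER, a tamoxifen-inducible Cre driven from the delta locus. Every group, controls included, carried TcrdCreER and the ZsGreen reporter Rosa26ZsG/+. The genotypes were homozygous wild type (WT) and homozygous DPASEKO (KO), a deletion of DPASE, a regulatory element of the Rag1 and Rag2 genes, whose products form the V(D)J recombinase. Each genotype was sampled at steady state (all preselection DP cells) and 24 h and 48 h after an intraperitoneal injection of 1 mg tamoxifen (ZsGreen-positive preselection DP cells only), with 2 libraries in each of the 6 groups. The design text speaks of groups of 2 mice and does not tie a library to a mouse, so the p-values cover only the variation among these libraries, and that may be technical.

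A Trav segment with a dv suffix can be joined to Dδ and Jδ segments, giving a delta chain, as well as to a Jα segment, giving an alpha chain. The Tcra and Tcrd genes share the stretch of chromosome that holds these V segments, and a Vα-to-Jα joint deletes the Tcrd genes lying between. Primary Vα-to-Jα joints use Traj segments at the 5′ end of the J array (high Traj numbers), and later rounds on the same allele replace them with joints of more distal V segments and more 3′ Traj segments (low numbers). Segments with a d in the name lie in a duplicated block of the V array, farther from the J segments than their namesakes.

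In the reference annotation used here (GENCODE M21, genome build GRCm38, a C57BL/6J assembly) all 4 members lie on the plus strand of chromosome 14. Trav15d-1-dv6d-1 (ENSMUSG00000096653) spans chr14:52863299-52863936, 1293.3 kb before Traj58. Trav15d-2-dv6d-2 (ENSMUSG00000105953) spans chr14:52956782-52957400, 1199.9 kb before it. Trav15-1-dv6-1 (ENSMUSG00000094016) spans chr14:53559632-53560247, 597.0 kb before it, and Trav15-2-dv6-2 (ENSMUSG00000076848) spans chr14:53649404-53649994, 507.3 kb before it. Each is annotated with 2 exons, of which the second encodes the V region.

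The copies fall into pairs by number and not by block. Over 303 aligned columns of the V exon, Trav15-1-dv6-1 and Trav15d-1-dv6d-1 were 95.05% identical (15 columns differ), and Trav15-2-dv6-2 and Trav15d-2-dv6d-2 were 97.03% identical (9 columns differ). A copy numbered 1 and a copy numbered 2 shared 77.89% to 81.52% of columns, and the nearest V exon outside the Trav15 group shared 58.82% to 61.22%. The same 120-base window of the 4 V exons is shown because the largest differences between libraries followed this split. Capitals mark the 23 positions at which both copies numbered 2 share a base and both copies numbered 1 share a different base. The windows are from the GRCm38 reference, plus strand, 5′ to 3′, and the 129-derived locus of these mice may differ from it.
Trav15d-1-dv6d-1: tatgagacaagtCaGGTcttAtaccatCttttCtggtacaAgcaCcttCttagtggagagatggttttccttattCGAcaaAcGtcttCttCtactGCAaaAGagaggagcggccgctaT
Trav15-1-dv6-1: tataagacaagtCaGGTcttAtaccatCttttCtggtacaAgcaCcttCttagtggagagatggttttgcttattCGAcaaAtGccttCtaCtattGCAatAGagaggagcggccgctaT
Trav15d-2-dv6d-2: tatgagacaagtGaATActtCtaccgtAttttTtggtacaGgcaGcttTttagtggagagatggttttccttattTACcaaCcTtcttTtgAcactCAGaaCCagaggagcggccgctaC
Trav15-2-dv6-2: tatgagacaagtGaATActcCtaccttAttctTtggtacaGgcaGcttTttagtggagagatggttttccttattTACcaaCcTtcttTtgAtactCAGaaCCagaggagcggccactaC
The windows lie at chr14:52863717-52863836, chr14:53560028-53560147, chr14:52957181-52957300 and chr14:53649775-53649894, in the order printed. The annotation also holds Trav15n-1 and Trav15n-2, whose V exons are identical to those of Trav15d-1-dv6d-1 and Trav15d-2-dv6d-2. The n copies are not analysed here, and how reads from such copies were assigned is not given in the sources used here.

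Of the 12 tables, 8 had values summing to between 0.995 and 0.998, and 4 had values summing to between 1.97 and 1.99. These 4 were replicate 2 of both genotypes at 24 h and 48 h, and they stood apart in other ways. Their smallest share above 0 was 0.00401% to 0.00937%, against 0.000336% to 0.000853% in the 8, and 43.5% to 56.7% of their pairs stood at 0, against 1.57% to 14.9%. The depth in reads is unknown, so no detection limit was computed. The invariant NKT cell pair (Trav11 or Trav11d with Traj18) and the MAIT cell pair (Trav1 with Traj33) each held at most 0.0504% of any library, and no table listed a Trd segment. Values without the 4 tables are given for many of the results that rest on them.

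The family held close to 2% of the repertoire in the 8 libraries and 12.1% to 26.3% in the other 4. At steady state its share was 2.33% and 2.10% in WT and 2.09% and 2.06% in KO. At 24 h it was 2.37% in WT replicate 1 and 12.1% in WT replicate 2, and 2.17% and 16.1% in the KO replicates. At 48 h it was 2.25% and 26.3% in WT and 2.05% and 15.1% in KO. Within each labelled group the replicates lay further apart than WT and KO did at steady state or in replicate 1.

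The excess in these 4 libraries lay in the copies numbered 2. Trav15-2-dv6-2 held 0.582% and 0.598% in WT and 0.742% and 0.706% in KO at steady state. After labelling it held 1.07% (WT) and 1.10% (KO) in replicate 1 at 24 h, and 9.77% and 12.7% in replicate 2. At 48 h the values were 0.557% and 0.667% in replicate 1, and 18.3% and 11.6% in replicate 2. It was the most used of the 79 segments in 3 of the 4 libraries and ranked 2 in WT replicate 2 at 24 h, against ranks 30 to 62 in the other 8.

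Trav15d-2-dv6d-2 held the lowest shares of the family at steady state, 0.334% and 0.381% in WT and 0.274% and 0.307% in KO. In replicate 1 it held 0.192% (WT) and 0.155% (KO) at 24 h, and 0.341% and 0.188% at 48 h. In replicate 2 it held 2.06% and 3.06% at 24 h, and 7.58% and 3.11% at 48 h. All 4 replicate 2 values of the labelled cohorts lay above all 8 others, as they did for Trav15-2-dv6-2.

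The copies numbered 1 stood lower in the same 4 libraries. Trav15d-1-dv6d-1 held 0.787% and 0.642% in WT and 0.486% and 0.468% in KO at steady state. It held 0.494% and 0.387% in replicate 1 at 24 h, 0.740% and 0.484% in replicate 1 at 48 h, and 0.045%, 0.106%, 0.198% and 0.073% in replicate 2 of WT 24 h, KO 24 h, WT 48 h and KO 48 h. Trav15-1-dv6-1 varied least, between 0.478% and 0.707% in the 8 libraries and between 0.227% and 0.302% in the 4. Every replicate 2 value of both copies in the labelled cohorts lay below all 8 others.

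**Figure D1:**
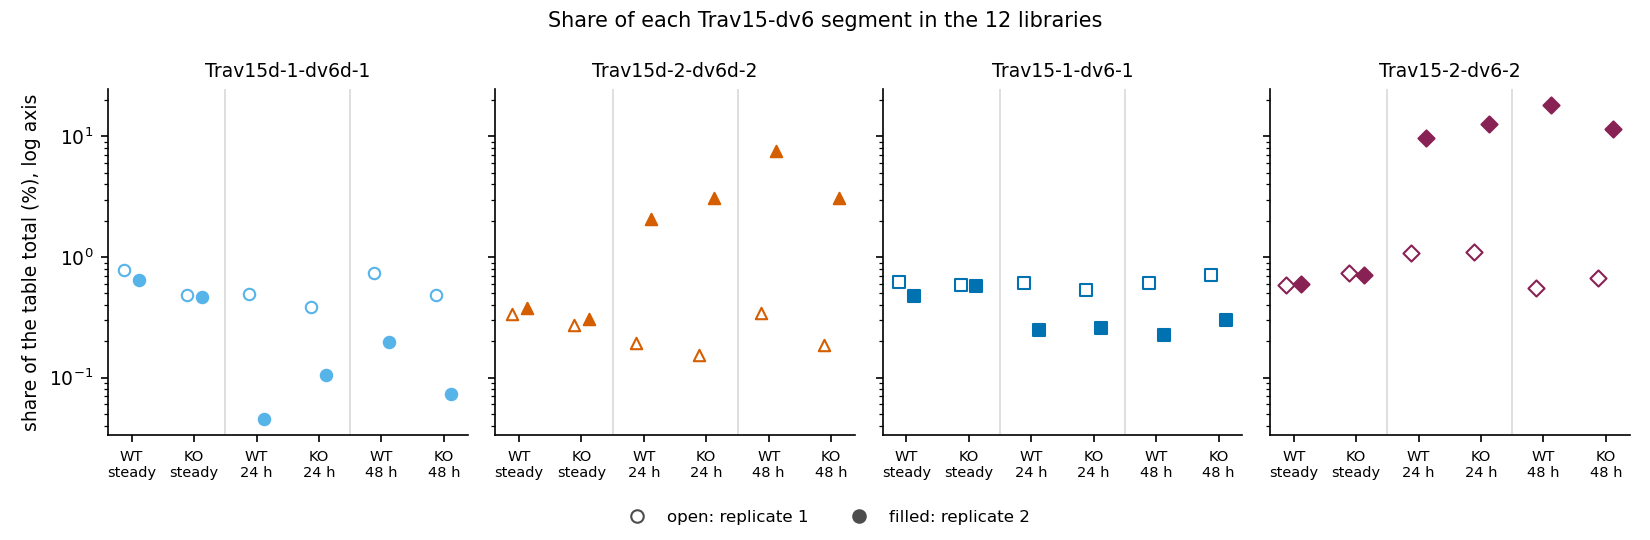
Share of each Trav15-dv6 segment (percent of the table total, log axis) in the 12 libraries by genotype and sampling; open symbols are replicate 1 and filled symbols replicate 2, with 1 library each and no error bar. The copies numbered 2 reach 2.06% to 18.3% in replicate 2 at 24 h and 48 h, while the copies numbered 1 stay at or below 0.302% there.

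Copies numbered 2 made up 39.4% to 57.7% of the family in the 8 libraries and 97.5% to 98.4% in the 4. Trav15-2-dv6-2 was 1.57 to 7.06 times as abundant as Trav15d-2-dv6d-2 in the 8 libraries and 2.42 to 4.74 times in the 4, so these ranges overlap. Trav15-1-dv6-1 was 0.745 to 1.46 times as abundant as Trav15d-1-dv6d-1 in the 8 libraries, and 5.46 (WT 24 h), 2.44 (KO 24 h), 1.14 (WT 48 h) and 4.12 (KO 48 h) times in the 4, of which 3 lie above that range.

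The gap between replicates was set against that of all 79 segments, as a description of these libraries, on the log2(percent + 0.01) scale. The log2 ratio of replicate 2 to replicate 1 for Trav15d-2-dv6d-2 was 3.36 in WT and 4.22 in KO at 24 h, and 4.43 and 3.98 at 48 h. For Trav15-2-dv6-2 it was 3.18, 3.52, 5.02 and 4.10. These segments took ranks 1 and 2 of 79 in each of the 4 groups, and the highest ratio of any segment outside the family was 1.95 to 2.09. The ratio was -3.19 to -1.78 for Trav15d-1-dv6d-1 and -1.39 to -1.01 for Trav15-1-dv6-1, while the median over all segments was -0.65 to -0.32.

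No other dv segment and no neighbour of the copies numbered 2 had such a ratio. The 6 other dv segments had ratios of -1.58 to 1.07. Of the nearest listed neighbours of the copies numbered 2, Trav14d-2 (7612 bp from Trav15d-2-dv6d-2) had ratios of -2.74 to -1.99 and Trav14-2 (8178 bp from Trav15-2-dv6-2) of -1.60 to -0.20. On the side of the J array, Trav3d-3 had ratios of -1.10 to 0.07 and Trav3-3 of -0.93 to -0.66. At steady state, where both replicates have tables summing to near 1, the 4 members had ratios of -0.37 to 0.18.

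**Figure D2:**
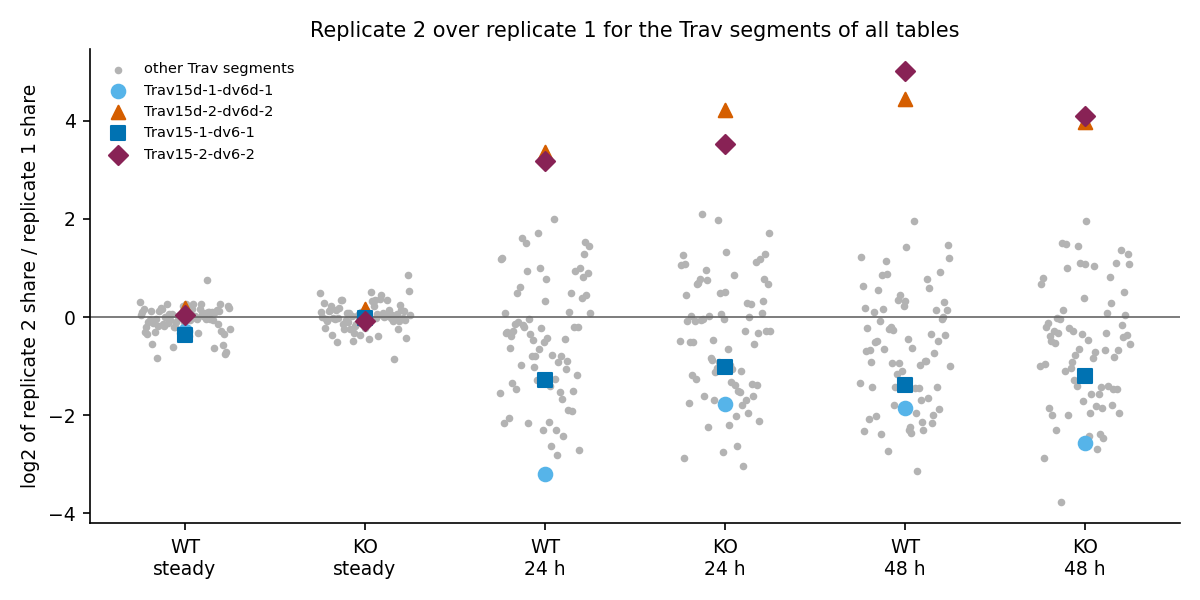
Log2 ratio of the replicate 2 share to the replicate 1 share in each group, for the 4 members (coloured symbols) and the other 75 shared Trav segments (grey points; horizontal spread within a group has no meaning). At 24 h and 48 h the copies numbered 2 lie at 3.18 to 5.02, above every other segment, and at steady state all 4 members lie near 0.

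The J partners of Trav15-2-dv6-2 were alike in both replicates of each group, and those of Trav15d-2-dv6d-2 less so in the labelled groups. For each segment, usage of the 43 Traj segments was expressed as a percent of the segment's own repertoire. The usage of Trav15-2-dv6-2 in replicates 1 and 2 correlated at r = 0.95 (WT) and 0.98 (KO) at 24 h and 0.92 and 0.93 at 48 h, across Traj segments, and at 0.93 and 0.95 at steady state. The overlap of the profiles was 88.2% to 91.9% in the labelled groups and 91.5% to 92.6% at steady state. For Trav15d-2-dv6d-2 the labelled groups gave r of 0.82 to 0.85 and overlaps of 73.6% to 85.2%. At steady state it had r of 0.93 (WT) and 0.90 (KO) and overlaps of 89.4% and 87.7%. These correlations are descriptions over 43 Traj segments of the same pair of libraries.

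The copies numbered 1 were joined to few Traj segments in the 4 libraries. Trav15d-1-dv6d-1 had 4 to 9 Traj partners above 0 there, and Trav15-1-dv6-1 had 10 to 18, against 35 to 43 for both in the 8 libraries. Trav15d-2-dv6d-2 had 39 to 42 and Trav15-2-dv6-2 41 to 43. Values of J usage for the copies numbered 1 in these libraries therefore rest on few joints.

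**Figure D3:**
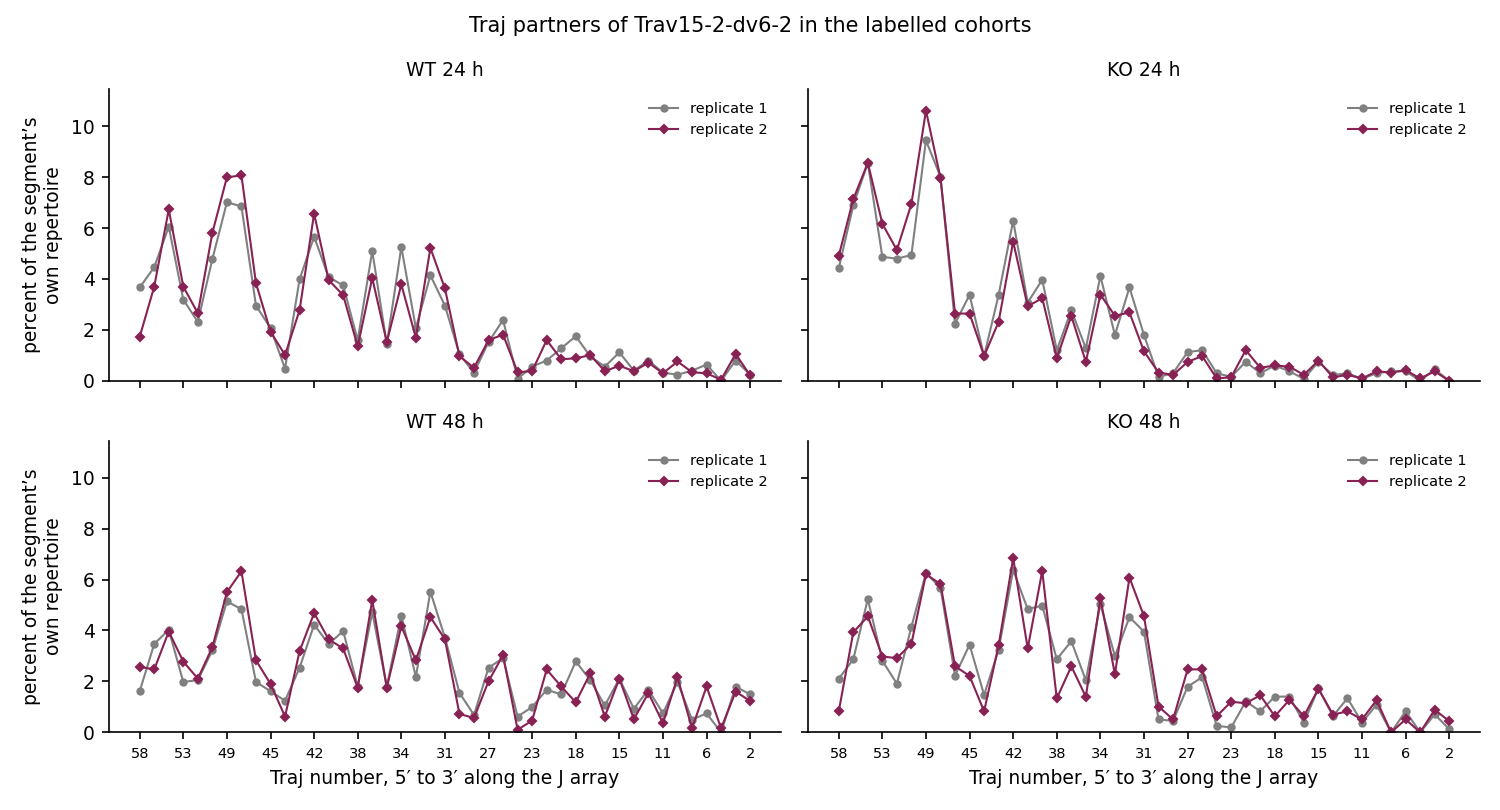
Traj partners of Trav15-2-dv6-2 in the labelled cohorts, as percent of the segment's own repertoire (y axis), with the 43 Traj segments in order from 5′ to 3′ (x axis); grey lines are replicate 1 and purple lines replicate 2. The lines follow each other in all 4 groups (r = 0.92 to 0.98), although the share of the segment differs 9.12-fold to 32.9-fold between them.

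The 5 family pairs with the highest mean share over the 12 libraries were all of Trav15-2-dv6-2, with Traj49, Traj48, Traj56, Traj42 and Traj50. The pair with Traj49 held 0.0389% and 0.0330% in WT and 0.0484% and 0.0447% in KO at steady state. In the labelled cohorts it held 0.0751% and 0.781% in the WT replicates and 0.104% and 1.34% in the KO replicates at 24 h, then 0.0287% and 1.01% in WT and 0.0417% and 0.722% in KO at 48 h. No family pair was among the 25 most used pairs of any of the 8 libraries. In the 4 libraries, 9 (WT 24 h), 9 (KO 24 h), 25 (WT 48 h) and 12 (KO 48 h) of the top 25 were family pairs.

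The genotype comparison asks whether loss of DPASE changed how often each member was used. At steady state every table sums to near 1. There both KO libraries lay below both WT libraries for the d copies. The KO shares were 0.617 and 0.729 of the WT value with the same replicate number for Trav15d-1-dv6d-1. For Trav15d-2-dv6d-2 they were 0.820 and 0.805. Both KO libraries lay above both WT libraries for Trav15-2-dv6-2 (1.28 and 1.18 times), and the groups overlapped for Trav15-1-dv6-1. Groups that do not overlap were common: of the 79 segments, 67.1% (steady state), 12.7% (24 h) and 20.3% (48 h). At 24 h and 48 h the groups overlapped for all 4 members.

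No member's share passed the test between genotypes when all 12 libraries were used. In limma, with Benjamini-Hochberg adjustment over the 79 segments, 0% of segments were called in each sampling and 0% on the mean of the 3 differences. At an unadjusted p under 0.05 the counts were 0, 0, 1 and 5 segments, none of them a member. The log2 fold changes on the mean of the 3 were -0.39 (SE 0.71) for Trav15d-1-dv6d-1, -0.40 (SE 1.16) for Trav15d-2-dv6d-2, 0.11 (SE 0.38) for Trav15-1-dv6-1 and 0.10 (SE 1.16) for Trav15-2-dv6-2. These errors carry the gap between replicates 1 and 2.

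Without the 4 libraries the errors shrank and the d copies were called. Using both steady-state replicates and replicate 1 at 24 h and 48 h (8 libraries, where each lone library is assumed to vary like the steady-state ones), the mean of the 3 differences was -0.50 (SE 0.10) for Trav15d-1-dv6d-1 and -0.47 (SE 0.09) for Trav15d-2-dv6d-2, with an adjusted p of 0.0259 for both in limma. Trav15-1-dv6-1 had 0.03 (SE 0.11, adjusted p = 0.809) and Trav15-2-dv6-2 had 0.19 (SE 0.07, adjusted p = 0.0777). In this fit 41.8% of all segments were called on the mean, and 0% at steady state alone, where 28 segments had an unadjusted p under 0.05. In these 8 libraries the d copies thus fell in KO, in a comparison that called 33 of 79 segments. The replicate 2 libraries left out at 24 h went the other way, with a KO share 2.34 times the WT share for Trav15d-1-dv6d-1 and 1.49 times for Trav15d-2-dv6d-2. The 2.34 rests on shares of 0.045% (WT) and 0.106% (KO), with 5 and 4 Traj partners above 0. Those left out at 48 h went the same way as the 8 libraries, with 0.37 and 0.41 times.

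With replicate number as a block within each sampling, the KO minus WT difference of Trav15d-2-dv6d-2 at 48 h was -1.06 (SE 0.23, adjusted p = 0.031 in limma). Its KO share was 0.55 of the WT share in replicate 1 and 0.410 in replicate 2. Of all segments, 35.4% were called at 48 h in the blocked fit. No other member was called between genotypes with the block, and on the mean of the 3 differences Trav15d-2-dv6d-2 had -0.40 (SE 0.13, adjusted p = 0.0507).

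Between 24 h and 48 h after labelling, no member's share passed the test in all 12 libraries. In WT and in KO 1.27% of segments were called, and 0% for the difference between these changes. The median segment changed by 0.27 (WT) and 0.28 (KO) on the log2 scale, against which the members' changes in this fit are to be read. In WT, Trav15d-1-dv6d-1 changed by 1.25 (SE 1.22) and Trav15d-2-dv6d-2 by 1.33 (SE 2.0). Trav15-1-dv6-1 changed by -0.06 (SE 0.66) and Trav15-2-dv6-2 by -0.01 (SE 2.0). The KO changes were -0.08, 0.14, 0.31 and -0.42 in the same order, with the same errors. Without the 4 libraries the median changes were 0.26 (WT) and 0.32 (KO).

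In the fit without the 4 libraries, the change from 24 h to 48 h in WT was 0.80 (SE 0.17, adjusted p = 0.0175) for Trav15d-2-dv6d-2 and -0.93 (SE 0.13, adjusted p = 0.0078) for Trav15-2-dv6-2. In KO, Trav15-2-dv6-2 fell by 0.71 (SE 0.13, adjusted p = 0.0138) and the other 3 were not called. This fit called 58.2% of segments in WT and 39.2% in KO. In replicate 2 the WT share of Trav15-2-dv6-2 was 1.88 times as high at 48 h as at 24 h, against 0.520 times in replicate 1, so its direction differed between replicates. With replicate number as a block, WT changes of 1.25 (SE 0.37, adjusted p = 0.0311) for Trav15d-1-dv6d-1 and 1.33 (SE 0.30, adjusted p = 0.0137) for Trav15d-2-dv6d-2 were called, among 46.8% of all segments. In both replicates of WT these d copies were more used at 48 h, by 1.5 and 4.39 times for the first and 1.78 and 3.68 times for the second. The 4.39 and the blocked call of Trav15d-1-dv6d-1 rest in part on WT replicate 2 at 24 h. There it held 0.045% with 5 Traj partners above 0.

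Where along the J array each member was joined was measured by its mean J number, the usage-weighted mean of its Traj numbers, which is higher for more 5′ partners. In WT at steady state it was 28.1 and 26.1 for Trav15d-1-dv6d-1, 23.2 and 22.7 for Trav15d-2-dv6d-2, 33.9 and 33.2 for Trav15-1-dv6-1, and 36.0 and 36.4 for Trav15-2-dv6-2. The members without a d, which lie nearer the J array, were thus joined to more 5′ Traj segments than the d copies. Within the d copies the order was the reverse of the chromosome order: Trav15d-2-dv6d-2, closer to the J array, had the lower mean J number.

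The mean J numbers of the nearest listed neighbours were set beside these. Trav14d-1, next to Trav15d-1-dv6d-1, had mean J numbers of 29.1 and 27.4, and Trav14d-2 and Trav3d-3, on either side of Trav15d-2-dv6d-2, had 24.2 and 21.2, and 24.2 and 22.1. Trav9d-2, on the J side of Trav15d-1-dv6d-1, had 22.5 and 24.6, both below the 2 values of that member. The neighbours of Trav15-1-dv6-1, Trav14-1 and Trav9-2, had 35.3 and 34.0, and 34.9 and 34.5. The neighbours of Trav15-2-dv6-2, Trav14-2 and Trav3-3, had 36.8 and 35.8, and 35.7 and 35.9.

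**Figure D4:**
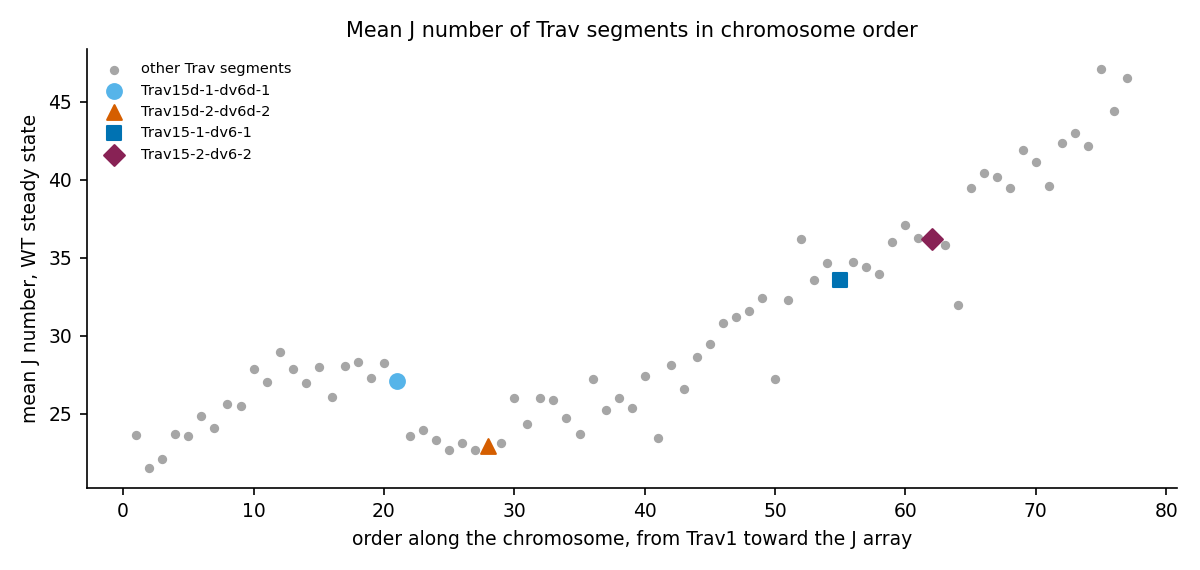
Mean J number in WT at steady state (mean of 2 libraries, y axis) of the 77 Trav segments matched to the annotation, in chromosome order from Trav1 toward the J array (x axis). The members are coloured, with Trav15d-1-dv6d-1 at 27.1, Trav15d-2-dv6d-2 at 22.9, Trav15-1-dv6-1 at 33.5 and Trav15-2-dv6-2 at 36.2.

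The mean J number of every member lay higher in KO at every sampling. At steady state the KO libraries had mean J numbers of 35.1 and 33.3 for Trav15d-1-dv6d-1, 28.7 and 28.4 for Trav15d-2-dv6d-2, 37.6 and 35.6 for Trav15-1-dv6-1, and 38.8 and 37.9 for Trav15-2-dv6-2. Both KO libraries lay above both WT libraries for all 4 members at each sampling. Among all 79 segments the groups did not overlap for 97.5% (steady state), 87.3% (24 h) and 83.5% (48 h). The KO minus WT difference at steady state was 7.13 (SE 1.76, adjusted p = 0.00965) for Trav15d-1-dv6d-1 and 5.64 (SE 1.12, adjusted p = 0.00341) for Trav15d-2-dv6d-2 in limma. Trav15-1-dv6-1 had 3.07 (SE 2.06, adjusted p = 0.196) and Trav15-2-dv6-2 had 2.12 (SE 1.00, adjusted p = 0.096). The test called 48.1% of all segments there, with a median difference of 4.87. Without WT replicate 2 or KO replicate 1 of that sampling, which leaves 1 library in a group, Trav15d-1-dv6d-1 had 6.13 and 6.27. It was no longer called, and most of the calls over all segments were lost as well.

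At 24 h all 4 members were called, with differences of 9.06 (SE 1.76), 5.34 (SE 1.12), 7.80 (SE 2.06) and 3.98 (SE 1.00) in the order above and adjusted p values of 0.0118 to 0.0145 in limma, among 46.8% of segments and beside a median of 3.98. Without the 4 libraries the differences of the copies numbered 1 were smaller, 5.05 for Trav15d-1-dv6d-1 and 4.25 for Trav15-1-dv6-1. Leaving out KO replicate 2 alone leaves 1 library in that group, and it ended the calls at 24 h for all segments, members included. The members' differences were then 6.83, 4.79, 4.83 and 3.65 in the same order, beside a median of 3.58. Leaving out WT replicate 1 ended most calls, both of members and of all segments. At 48 h 3 members were called, with 7.95 (SE 1.76) for Trav15d-1-dv6d-1, 6.83 (SE 1.12) for Trav15d-2-dv6d-2 and 2.92 (SE 1.00) for Trav15-2-dv6-2, among 69.6% of segments and beside a median of 5.67. The call of Trav15-2-dv6-2 was lost without WT replicate 1 (adjusted p = 0.0837), KO replicate 1 (0.127) or KO replicate 2 (0.0673). Trav15-1-dv6-1 had 4.22 (SE 2.06, adjusted p = 0.086), and was called without the 4 libraries at 4.65 (SE 1.45, adjusted p = 0.00778), when 82.3% of segments were. Without them Trav15-1-dv6-1 was also called at steady state (adjusted p = 0.0122), with 75.9% of segments.

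On the mean of the 3 samplings all 4 members rose: by 8.05 (SE 1.01), 5.94 (SE 0.64), 5.03 (SE 1.19) and 3.01 (SE 0.58), with adjusted p values of 3.33e-05 to 0.00269. The test called 93.7% of segments, all upward, with a median of 4.71. Relative to that median Trav15-2-dv6-2 moved less: on a scale centred on the segments' common level its difference was -1.74 (adjusted p = 0.0239 in limma), so its direction there is the opposite. The rise in mean J number was thus shared with nearly all Trav segments. Without the 4 libraries the members' differences on the mean were 7.13, 6.18, 3.99 and 3.22 in the same order, beside a median of 5.34.

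The change from 24 h to 48 h went the other way. In WT the mean J number of Trav15d-2-dv6d-2 went from 40.1 and 39.6 to 25.6 and 28.0, and in KO from 44.7 and 45.8 to 34.0 and 33.2. That of Trav15-2-dv6-2 went from 40.5 and 40.9 to 35.2 and 36.2 in WT, and from 44.4 and 45.02 to 39.0 and 38.4 in KO. All 4 members fell in both genotypes. The WT changes were -10.5 for Trav15d-1-dv6d-1, -13.1 for Trav15d-2-dv6d-2, -6.52 for Trav15-1-dv6-1 and -4.96 for Trav15-2-dv6-2, and the KO changes were -11.7, -11.6, -10.1 and -6.02 in that order, with adjusted p values of 6.66e-06 to 0.0125 in limma. Without WT replicate 1 at 24 h or at 48 h, the WT change of Trav15-1-dv6-1 was not called (adjusted p = 0.0565 and 0.106). The test called 91.1% of segments in WT and 82.3% in KO, with median changes of -9.22 and -7.96. On the centred scale Trav15-2-dv6-2 had the opposite direction in WT (3.88, adjusted p = 0.00482) and in KO (1.57, adjusted p = 0.208), as did Trav15-1-dv6-1 in WT (2.33, adjusted p = 0.319). The difference between these changes was called for no member (adjusted p 0.609 to 0.822 in limma) and for 2.53% of segments. In the order above, the KO minus WT differences of change were -1.11, 1.49, -3.58 and -1.06. Without the 4 libraries they were 4.16, 3.86, 0.41 and -0.09, so the sign changed for both copies numbered 1. The WT changes were then -13.5, -14.5, -9.18 and -5.29, and the KO changes -9.38, -10.7, -8.77 and -5.38. At 24 h the 4 members had mean J numbers within 38.9 to 42.4 in the WT libraries, and by 48 h they spanned 25.6 to 36.9.

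**Figure D5:**
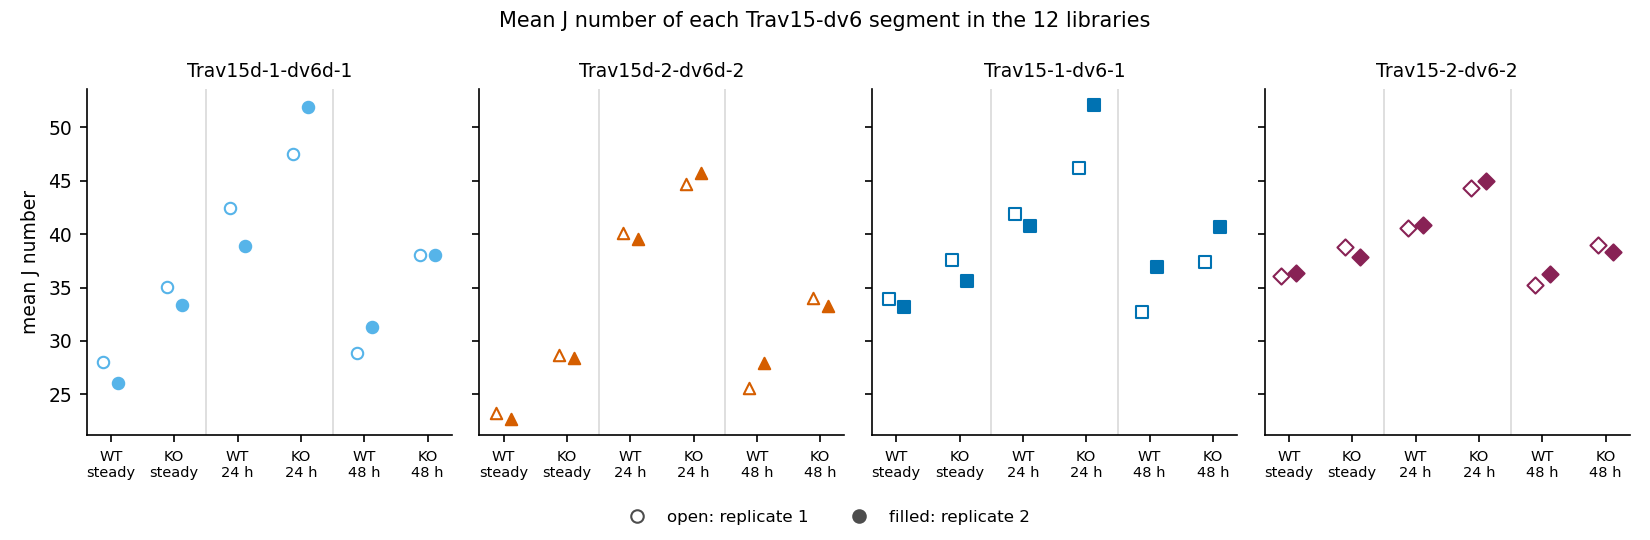
Mean J number (usage-weighted mean Traj number; higher is more 5′) of each Trav15-dv6 segment in the 12 libraries by genotype and sampling; open symbols are replicate 1 and filled symbols replicate 2, with 1 library each and no error bar. The KO libraries lie above the WT libraries of the same sampling for all 4 members, and values at 24 h lie above those at 48 h.

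The same pattern was seen in windows of the J array. The 3′ window (Traj21 to Traj2) took 50.7% and 52.8% of the joints of Trav15d-2-dv6d-2 in WT at steady state and 35.4% and 36.0% in KO. For Trav15-2-dv6-2 it took 17.8% and 17.7% in WT and 13.6% and 13.6% in KO. At 24 h the window took 10.7% and 11.2% of Trav15d-2-dv6d-2 joints in WT and 6.9% and 6.0% in KO. The 5′ window (Traj58 to Traj42) then took 50.3% and 50.8% in WT and 65.6% and 74.1% in KO. The whole family's 3′ share at steady state, 31.3% and 33.6% in WT and 19.3% and 21.01% in KO, was close to that of all other Trav segments, 30.2% and 33.8% in WT and 17.6% and 20.4% in KO.

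Of the 172 family pairs, 1 was called between genotypes in the fit to all 12 libraries. Trav15-1-dv6-1 with Traj2 had a log2 fold change of -0.78 on the mean of the 3 differences (SE 0.14, adjusted p = 0.047 in limma), among 1.09% of the 3397 pairs, and it was not called with replicate number as a block. It held 0.0184% and 0.0156% in WT and 0.00321% and 0.00403% in KO at steady state. At 24 h it held 0.00256% in WT replicate 1 and was listed at 0 in the other 3 libraries. At 48 h it held 0.0114% and 0.0189% in WT, and 0.00170% and 0 in KO. Within a sampling no family pair was called, and the shares of all pairs called were 0.294% (steady state), 0% (24 h) and 0% (48 h).

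Without the 4 libraries 15 family pairs were called at steady state, 0 at 24 h, 27 at 48 h and 49 on the mean, beside 10.8%, 0%, 20.0% and 36.7% of all pairs. Of the 49, 41 fell and 8 rose in KO, and of the 1248 pairs called among all 3397, 886 fell and 362 rose. The family pairs that fell joined Traj37 to Traj2, and those that rose joined Traj58 to Traj42. A shift toward 5′ Traj segments in KO was shared with nearly all Trav segments, as given above for mean J number. Traj partners of the called pairs outside the family were not broken down. The largest change was that of Trav15d-1-dv6d-1 with Traj2, -1.38 on the mean (SE 0.08, adjusted p = 0.00678 in limma). This pair was the most used family pair in WT at steady state, at 0.0479% and 0.0434%, and held 0.00250% and 0.00269% in KO. In replicate 1 it held 0.0217% in WT at 48 h and was listed at 0 in KO.

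Across the 12 libraries the share of Trav15d-2-dv6d-2 was most like those of Trav10 (r = 0.96), Trav15-2-dv6-2 (0.94) and Trav4d-3 (0.93), and Trav15-2-dv6-2 most like Trav15d-2-dv6d-2, Trav10 (0.94) and Trav14d-1 (0.85). Trav15d-1-dv6d-1 was most like Trav8d-1, Trav12d-3 and Trav6-5 (0.97 to 0.95), and Trav15-1-dv6-1 most like Trav6-6, Trav12-3 and Trav6-5 (0.98 to 0.96). Over the 8 libraries whose tables sum to near 1, a choice made after the tables were seen, other segments took these places. There Trav15d-2-dv6d-2 was most like Trav13d-1, Trav1 and Trav6d-6 (0.95), and Trav15d-1-dv6d-1 like Trav6d-5, Trav10d and Trav6d-6 (0.93 to 0.91). Trav15-2-dv6-2 was most like Trav21-dv12, Trav19 and Trav14-3 (0.99 to 0.98), and Trav15-1-dv6-1 like Trav9-4, Trav9-2 and Trav9-3 (0.87 to 0.85). The copies numbered 2 correlated with each other at -0.83 over the 8 libraries, against 0.94 over the 12. The d copies correlated with each other at 0.78 over the 8, against -0.78 over the 12. The sign stayed the same for the other pairs of members, but most were much weaker over the 8 libraries. Trav15d-1-dv6d-1 with Trav15-1-dv6-1 had 0.055, against 0.87 over the 12. Trav15-1-dv6-1 had -0.11 with Trav15-2-dv6-2 (against -0.96) and -0.29 with Trav15d-2-dv6d-2 (against -0.95). Trav15d-1-dv6d-1 with Trav15-2-dv6-2 had -0.79, against -0.90. These are Pearson correlations of log2(percent + 0.01), and the points share libraries and the replicate gap described above.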

How the data were processed

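Tcra transcripts were amplified by template-switch RACE with a Trac primer from sorted DP thymocytes, per the labels' protocols. The authors deposited 1 table per library, whose values are fractions of the repertoire per Trav-Traj pair, per the file headers. For aligner, build, segment annotation and counted unit: not given in the sources used here. Each value was divided by its table's own total, so tables normalised separately are compared as compositions. Rows with no Trav name (5 and 7 in 2 steady-state tables) were left out.

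A linear model with 1 mean per group was fitted to log2(percent + 0.01), which understates changes of low shares, and to mean J number. It used limma 3.58.1 in R 4.3.3, with Benjamini-Hochberg adjustment over 79 segments or 3397 pairs at 0.05. The main fit had 6 residual degrees of freedom, and the fit without the 4 libraries had 2. The blocked fits had 3 between genotypes and 2 between 24 h and 48 h. Tests were two-sided. The family total has no test. The fit was checked on simulated data of 3397 rows with the spread of the steady-state libraries. That simulation held no gap between replicates, so it does not cover the gap seen at 24 h and 48 h. Alternatives were other pseudocounts, a filter on low shares, rescaling, centring, weights, trend, merged d copies, a replicate block, an exact permutation test and leaving out libraries. Deviations of same-numbered WT and KO libraries from their group means correlated at 0.72 (steady state), 0.93 (24 h) and 0.93 (48 h) over 79 segments, so the numbers were taken to pair libraries. Same-numbered libraries of 24 h and 48 h correlated at 0.89 (WT) and 0.88 (KO). All replicate 2 tables there sum to near 2, so these correlations cannot tell pairing within a sampling from that difference between tables. Named pairs were the 5 with the largest called change and the 5 with the highest mean share, and likeness was by Pearson correlation. Members, lists and rules were chosen with earlier results of these data known. V exons were aligned in pairs with Biopython 1.88 for the identities, and the 4 members together with MAFFT for the marked positions. The window shown is the 120 columns with the most marked positions, 23 of 48 in the exon. Of the 79 segments, 77 matched the annotation by name.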

Additional observations from a re-analysis of the deposited data

How the results depend on the processing

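With the replicate block, the count of members called by share went from 0 to 1 for KO minus WT at 48 h. For 48 h minus 24 h in WT it went from 0 to 2. These stood beside 28 and 37 of all 79 segments. With replicate 1 only at 24 h and 48 h, which leaves 1 library in each labelled group, other calls appeared, shared with many other segments. The block changed no other call except that of the pair named above. Family pairs called at steady state numbered 1 with a pseudocount of 0.1, 15 with array weights, 15 with replicate 1 only at 24 h and 48 h and 15 with steady-state libraries alone, against 0. At 48 h they numbered 27 with replicate 1 only, against 0. On the mean, the 1 pair became 0 with a pseudocount of 0.001, centring, a filter on low shares, the replicate block, array weights or trend and robust fitting, 2 with a pseudocount of 0.1 and 49 with replicate 1 only. Leaving out each library in turn gave 0 to 2 family pairs at steady state, 0 to 9 at 48 h and 0 to 7 on the mean. The cause of these changes was not tested.

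For mean J number, leaving out a library gave 1 to 2 members at steady state and 0 to 4 at 24 h. Centring on the common level of all segments removes a shift they share. It gave 0 members called at steady state, 24 h and 48 h, beside 0, 0 and 10 of all 79 segments. It gave 2 on the mean, 2 for 48 h minus 24 h in WT and 1 in KO, beside 25, 28 and 18. Of the 2 in each case, 1 was called in the opposite direction, Trav15-2-dv6-2 (adjusted p = 0.0239 on the mean and 0.00482 for 48 h minus 24 h in WT). On that scale Trav15-2-dv6-2 had -0.18 (24 h), -2.50 (48 h) and -1.74 (mean) for KO minus WT and 3.88 (WT) and 1.57 (KO) for 48 h minus 24 h, and Trav15-1-dv6-1 had 2.33 (48 h minus 24 h, WT), each opposite to the uncentred value. Rescaling and pseudocounts do not act on mean J number, and the fit with merged d copies was not run for it. Of the alternatives for single members, 515 fold changes kept direction and side of the threshold, 8 gained a call and 69 changed sign with no call in either fit. Of the mean J differences, 460 kept both, 8 gained a call, 26 lost it and 8 changed sign with no call. The depth of the tables is unknown.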
